A study of Mus musculus with 338 samples.

Results

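Islets of 8 C57Bl/6J mice kept on regular chow (RC) and taken at day 30 were compared with islets of 40 mice of the other 5 inbred strains of the study on the same diet and day, with 8 mice each from 129S2/SvPas, AKR/J, DBA/2J, A/J and BALB/cJ. These 48 libraries were chosen by strain, diet and day alone from the 338 libraries of a study that also fed a high-fat, high-sugar diet (HFHS) and sampled days 2, 10 and 90. The labels name no transgene, drug, age or sex, and each library held RNA of the islets of 1 mouse, at least 150 picked islets. The strain effect reported is the C57Bl/6J mean minus the equally weighted mean of the other 5 strain means, on the log2 scale, so that a positive value means a higher transcript level in C57Bl/6J.

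Pancreatic islets are small endocrine organs in which insulin-secreting beta cells lie with glucagon-secreting alpha cells, somatostatin-secreting delta cells and cells that make pancreatic polypeptide or ghrelin. Inbred strains of mice differ in insulin secretion and in how they stand a rich diet, and C57BL/6J is the strain most used for such work and the one from which the mouse reference genome was built. Its best known islet allele is a deletion within Nnt, the gene of a mitochondrial enzyme that makes NADPH from NADH. It also carries the b haplotype of the major histocompatibility complex (MHC), which lacks a working class II H2-E alpha chain.

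The beta cell genes Ins1 and Ins2 together took 17.6 to 25.8% of assigned reads in the C57Bl/6J libraries and 10.8 to 29.7% in the others, and all 26 beta cell markers tested were detected, as the islet label states. The C57Bl/6J libraries held 22949738 to 28116477 assigned reads, against 15026688 to 43832354 in the other strains. Reads assigned to genes were 67.1 to 71% of those sequenced in C57Bl/6J and 50.1 to 72.1% in the others. No pair of C57Bl/6J libraries agreed within counting noise, the lowest chi-square per degree of freedom over 28 pairs being 5.93.

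Some libraries stood apart in ways that touch the results. The sum of 10 genes of the small intestine epithelium (among them Apoa4, Fabp1, Sis and Alpi) ran from 0.125 to 2.95 CPM (read counts scaled to the total assigned reads of the library) in the 8 C57Bl/6J libraries, with a median of 0.43. Sums over cell type markers and the ranges of Apoa4 are on that library total, and all other gene levels in CPM are also scaled by TMM, a factor per library that evens out composition. In 13 of the 40 libraries of the other strains it lay between 19.3 and 447 CPM, namely in 3 of DBA/2J, 2 of BALB/cJ, 1 of A/J, 3 of AKR/J and 4 of 129S2/SvPas, and in the rest it reached at most 6.45 CPM. Acinar enzyme transcripts made up 0.411 to 2.4% of the C57Bl/6J reads (median 1.34%) and 0.0939 to 3.91% elsewhere, with medians of 1.96% in 129S2/SvPas and 0.352 to 0.57% in the remaining 4 strains. The summed lymphocyte markers reached 59.1 CPM in C57Bl/6J and 408 CPM in the 129S2/SvPas library 6RC26. Transcript levels fell with gene GC content in DBA/2J, with slopes of -0.748 to -0.228 log2 units per 10 points of GC, against -0.11 to 0.0251 in C57Bl/6J.

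**Figure D1:**
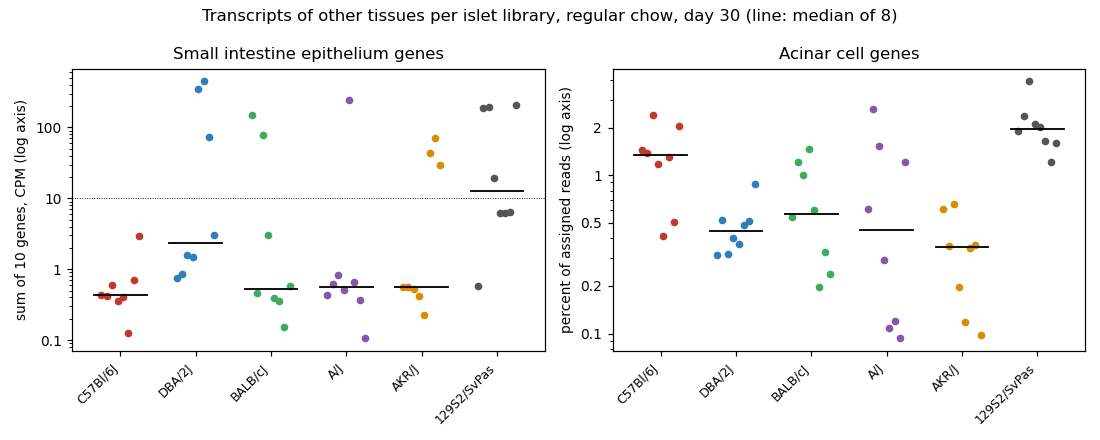
Per-library content of other tissues, by strain, with C57Bl/6J at the left and 8 libraries per strain. Left, the summed CPM of 10 small intestine epithelium genes on a log axis with a dotted line at 10 CPM: all 8 C57Bl/6J libraries lie at or below 2.95 CPM and 13 others lie above the line. Right, the percent of assigned reads in acinar genes on a log axis, with C57Bl/6J and 129S2/SvPas higher by median than the rest; black lines are medians.

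Of 15168 genes tested, 706 (4.65%) differed between C57Bl/6J and the mean of the other strains at an adjusted p under 0.05 (edgeR quasi-likelihood test, Benjamini-Hochberg) and at least a doubling or halving, a log2 difference of 1 or more in size. They divide into 352 higher in C57Bl/6J (2.32% of genes tested) and 354 lower (2.33%). At the adjusted p alone 42.2% of genes passed, 21.4% higher and 20.8% lower, so small differences were common and the median gene lay at -0.01. Counts in the gene lists below are to be read beside these shares. C57Bl/6J had the most extreme of the 6 strain means in 575 of the 706, and 306 of them also passed against each of the 5 strains singly. In a fit of all 338 libraries in 48 groups 722 genes were called, and 33 of the 173 genes named by rule no longer passed, among them Gcg (adjusted p = 0.166), Kcnj11 (0.325), H2-Ab1 (0.0598), H2-Eb1 (0.201), C1qb (0.0895), C1qc (0.17), Lck (0.182), Jund (0.158), Junb (0.143) and Reg2 (0.115). That fit also held the libraries of other days that went against their strain label, described below. It held a 129S2/SvPas library on HFHS at day 30 with an intestinal sum of 4990 CPM too. Several gene lists had fewer members passing there. Of 26 beta cell genes 3 passed higher and 2 lower, and of 35 antioxidant enzymes 2 and 6. The 26 respiratory chain genes and the 26 genes of protein folding each gave 1 and 3. Of 16 macrophage markers none passed. The 14 neuron and Schwann cell genes kept 10 and 2.

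Without the 13 libraries that held intestinal transcripts, 653 genes were called, 388 higher and 265 lower. Of the 352 genes higher in the full set 338 were called again, and of the 354 lower 253. Among the lower calls that were lost are Apoa4, Apoa1, Fabp1, Fabp2, Alpi, Akp3 and Clca3, whose C57Bl/6J levels were near 0 in these islets. Apoa4, an apolipoprotein of the gut, was at 0 to 1.07 CPM in C57Bl/6J and up to 136.6 CPM in the others, a log2 difference of -6.01 ± 1.93 (SE, edgeR adjusted p = 0.0104) that became -0.32 (adjusted p = 0.98) without those libraries. The 14 largest falls described below were called in both sets.

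**Figure D2:**
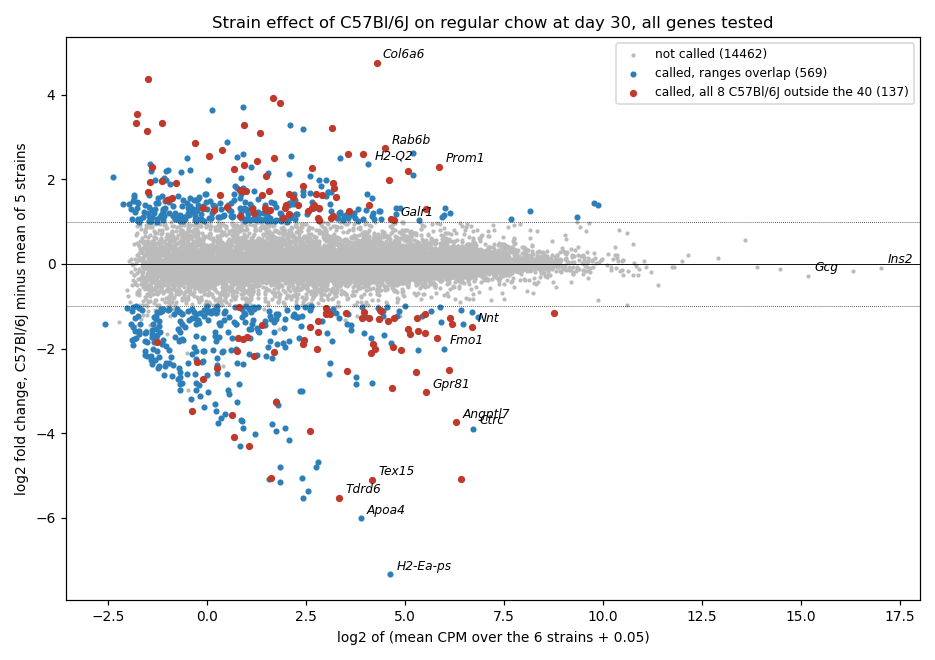
Log2 fold change of C57Bl/6J minus the mean of the other 5 strains (vertical axis) against mean level (horizontal axis, log2 CPM) for the 15168 genes tested. Red points are the called genes in which all 8 C57Bl/6J mice lie outside the range of the 40 others, blue points the other called genes, grey the rest; dotted lines mark a doubling and a halving.

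In 221 genes (1.46% of those tested) every C57Bl/6J mouse lay above or below all 40 other mice, 129 above (0.85%) and 92 below (0.607%). Of these, 74 above (0.488% of genes tested) and 63 below (0.415%) were also called, together 0.903%. The genes described next are the 15 largest rises and 14 of the 15 largest falls among the called and separated genes with a mean level of at least 2 CPM and a gene symbol.

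Among genes higher in C57Bl/6J, Col6a6, a collagen VI chain, stood first. It was at 79.7, 95.8 and 129.1 CPM (lowest, median and highest of the 8) in C57Bl/6J and at 0.636, 3.28 and 11.5 CPM in the other strains. The log2 difference was 4.75 ± 0.139 (SE, edgeR adjusted p = 2.12e-30), and the lowest C57Bl/6J mouse was far above the highest other mouse, a 129S2/SvPas animal. Myo7a, the motor protein of sensory hair bundles, had 12 to 16.5 CPM in C57Bl/6J and 0.289 to 2.31 CPM in the others (3.92 ± 0.143). Rnf150, a RING finger protein, had 24 to 42 CPM in C57Bl/6J and 2.01 to 9.56 CPM in the others (3.22 ± 0.0956). In both genes the whole C57Bl/6J range lay above that of the other strains.

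Rab6b, a small GTPase of Golgi transport best known in neurons, had 65.5, 78.6 and 88.7 CPM in C57Bl/6J and 7.06, 11.3 and 18.6 CPM in the other strains, a log2 difference of 2.73 ± 0.0987. The 5 other strains were alike in Rab6b, with means of 10.5 to 12.5 CPM. Prom1 (prominin 1), a surface protein of ducts and stem cells, had 140.98, 163.2 and 177 CPM in C57Bl/6J and 5.42, 41.5 and 64.6 CPM in the others (2.29 ± 0.0551). Here the others were graded, BALB/cJ lowest with a mean of 9.05 CPM and A/J highest with 59.3 CPM. Pttg1, the securin that guards chromosome separation, was at 7.67 to 11.2 CPM in C57Bl/6J against 0.383 to 2.61 CPM, and Rec8, a meiotic cohesin, at 29.4 to 48.2 CPM against 1.62 to 14 CPM.

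Fggy, a carbohydrate kinase, separated by little: its lowest C57Bl/6J mouse had 12.1 CPM and the highest other mouse 11.9 CPM, where AKR/J and 129S2/SvPas had means of 9.92 and 9.67 CPM while DBA/2J had 0.451 CPM. C8b, a chain of terminal complement, was at 55.3 to 72.7 CPM in C57Bl/6J and 9.99 to 28.8 CPM elsewhere (1.99 ± 0.0644). Tnfaip8, a tumour necrosis factor-induced protein, was at 19.5 to 25.9 CPM against 3.25 to 16.2 CPM. Acp1, the low molecular weight tyrosine phosphatase, was at 9.35 to 11.2 CPM against 0.944 to 3.01 CPM.

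The other 4 large rises were in genes with near-identical copies elsewhere in the annotation, and their read assignment is uncertain. These are the ribosomal protein genes Rpl3 (13.9 to 18.6 CPM in C57Bl/6J, 0.542 to 2.02 CPM in the others) and Rps3a (30.2 to 41.2 CPM against 0.271 to 27.4 CPM), the constitutive chaperone Hspa8 (75.4 to 113.99 CPM against 11.3 to 43.3 CPM) and the nucleosome-binding protein Hmgn2 (5.91 to 9.01 CPM against 0.462 to 3.17 CPM). Rpl3 had 7 such copies, Rps3a 6, Hspa8 6 and Hmgn2 1. Copies at 95% identity over at least 50% of the transcript were found for 4.89% of all genes tested, 11.8% of those called higher and 7.98% of those called lower.

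The gene lowest in C57Bl/6J relative to the others, among the separated genes of at least 2 CPM, was Tdrd6, a Tudor protein of the male germ line. It had 0.0345, 0.192 and 0.24 CPM in C57Bl/6J and 4.82, 10.1 and 25 CPM in the other strains (-5.52 ± 0.187, edgeR adjusted p = 3.07e-29). Tex15, likewise a germ line protein, had 0.399, 0.54 and 0.761 CPM in C57Bl/6J and 12.3, 21.2 and 31.3 CPM in the others (-5.10 ± 0.145). Both germ line transcripts were readily measured in islets of all 5 other strains, whose Tex15 means lay between 16.2 and 25.6 CPM.

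Several lower genes act in metabolism or its sensing. Gpr81 (now Hcar1), the lactate receptor, was at 4.54, 5.57 and 7.19 CPM in C57Bl/6J and at a lowest of 20.9 and a median of 58.9 CPM in the other strains, without overlap (-3.03 ± 0.0789), with DBA/2J and AKR/J (means 24.4 and 26.9 CPM) between C57Bl/6J and the rest. Ppp1r3b, which brings protein phosphatase to glycogen, was at 5.93 to 8.59 CPM against 30.7 to 67.4 CPM (-2.55 ± 0.0647). Aass, the first enzyme of lysine breakdown, was at 2.89 to 5.4 CPM against 5.42 to 37.3 CPM, so that its ranges nearly touched. Cyp39a1, an oxysterol hydroxylase, was at 6.31 to 7.53 CPM against 13.2 to 60.7 CPM, and Pyroxd2, an oxidoreductase-like protein, at 6.81 to 9.33 CPM against 22.4 to 52 CPM.

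Among the other large falls Angptl7, a secreted angiopoietin-like protein, was at 4.24, 6.32 and 8.83 CPM in C57Bl/6J and 41.2, 85.9 and 189 CPM in the others (-3.74 ± 0.142). Iqgap2, a scaffold of the actin cytoskeleton, was at 11 to 16.1 CPM against 34.6 to 121.6 CPM, and Trnp1, a nuclear protein known from neural progenitors, at 2.76 to 5.35 CPM against 15.2 to 44.4 CPM. Pik3c2g, a class II phosphoinositide kinase, was at 4.35 to 6.06 CPM against 12.2 to 56.6 CPM. The Kelch-like gene Klhl33 and the serine protease gene Prss41 were at most at 1.01 CPM in any C57Bl/6J mouse, and the highest level in the other strains was 4.85 and 7.22 CPM. Another of these falls, Ifi202b, is described with the diabetes loci.

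**Figure D3:**
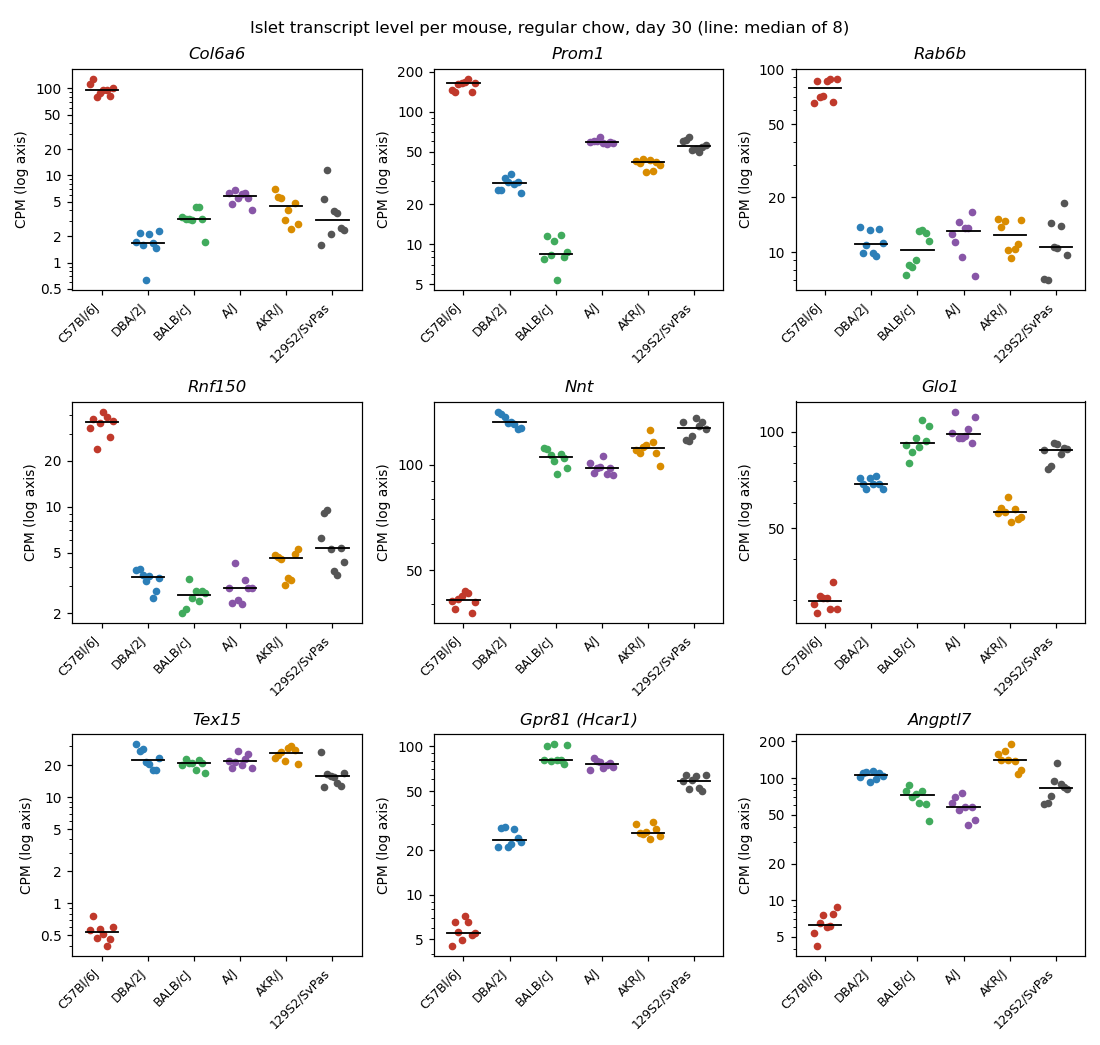
CPM per mouse (log axes) of 9 genes in the 6 strains, C57Bl/6J at the left, 8 mice per strain, black lines at the medians. Col6a6, Prom1, Rab6b and Rnf150 are higher and Nnt, Glo1, Tex15, Gpr81 (Hcar1) and Angptl7 lower in all 8 C57Bl/6J mice than in any of the 40 others; for Nnt these are 37.8 to 43.5 CPM against 93.5 to 142.2 CPM.

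**Figure D4:**
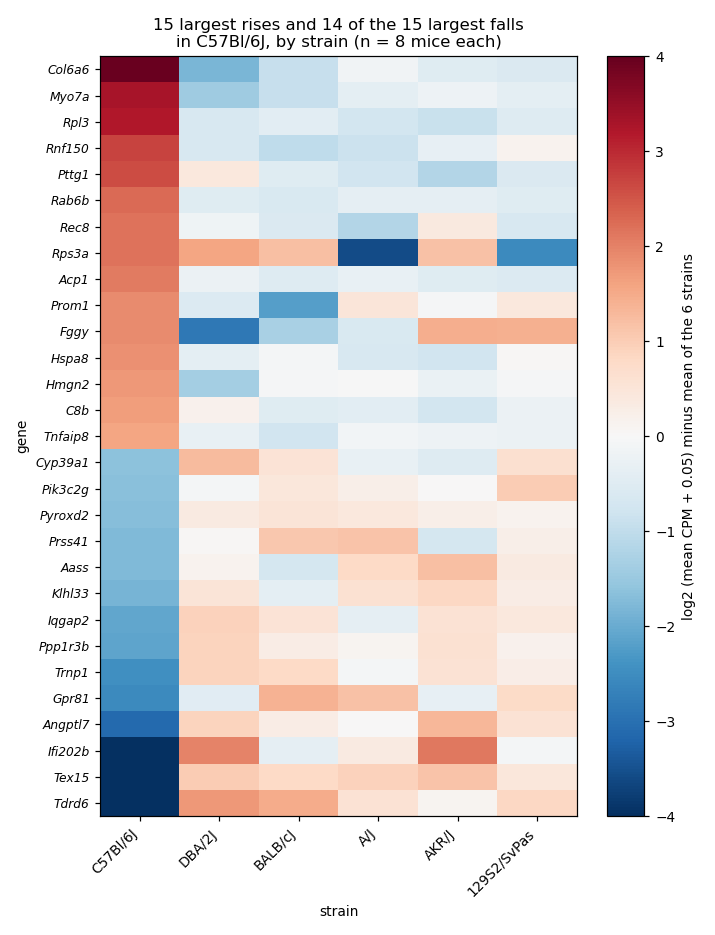
Mean level of the 15 largest rises (top) and 14 of the 15 largest falls (bottom) in the 6 strains, as log2 (mean CPM + 0.05) minus the mean of the 6 strains, C57Bl/6J at the left, n = 8 mice per column. C57Bl/6J lies farthest from the row mean in all rows but those of Rps3a, Prom1 and Fggy, in which A/J, BALB/cJ and DBA/2J (means 0.583, 9.05 and 0.451 CPM) do.

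Of 28 genes with alleles known to differ between inbred strains, 1 was called higher and 9 lower, against 2.32% and 2.33% of all genes tested, and 3 and 14 passed the adjusted p, against 21.4% and 20.8%. The list holds genes that C57Bl/6J is known to lack in working form, Nnt and the H2-E alpha gene among them, so its direction was partly fixed by the choice. Nnt was at 37.8, 41.1 and 43.5 CPM in C57Bl/6J and 93.5, 112.3 and 142.2 CPM in the other strains, a log2 difference of -1.48 ± 0.036 (edgeR adjusted p = 7.85e-35). The groups did not overlap, and every C57Bl/6J library still held between 822 and 1258 Nnt reads. Glo1, the glyoxalase that clears methylglyoxal and is duplicated in some strains, was at 27.3 to 34.1 CPM against 52.4 to 115.5 CPM (-1.42 ± 0.0454), Alad, the heme synthesis enzyme whose copy number also varies, at 12.4 to 17.2 CPM against 27.4 to 72.1 CPM (-1.59 ± 0.0744), and Wdfy1, an endosomal protein, at 14.5 to 18.2 CPM against 39.2 to 65.5 CPM (-1.63 ± 0.0445). The called rise was Gpnmb, a glycoprotein disrupted in DBA/2J, at 0.622 to 2.21 CPM in C57Bl/6J and with a mean of 0.0267 CPM in DBA/2J (1.21 ± 0.184). Without DBA/2J no gene of this list was called higher. Entpd4, a nucleotide phosphatase with a near-identical copy, was at 140.8 to 159.2 CPM against 69.4 to 103.5 CPM (0.86 ± 0.0235).

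Of 21 genes of mouse diabetes and obesity loci, 11 passed the adjusted p higher and 4 lower, with a median of 0.23. Of all genes tested 21.4% and 20.8% did. Ifi202b, an interferon-inducible gene linked to obesity in New Zealand strains, was at 0 to 0.0799 CPM in C57Bl/6J, 4 reads in all 8 libraries, and at 0.232 to 9.15 CPM in the others. Mcm6, a replication helicase subunit, was at 17.7 to 21.6 CPM in C57Bl/6J, as in A/J (mean 18.9 CPM), and at means of 6.4 to 8.74 CPM in the other 4 strains (1.13 ± 0.116). Dpp4, the peptidase that cuts incretin hormones, was at 107.3 to 122.5 CPM against 26.1 to 110.5 CPM (0.80 ± 0.0549).

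The identity genes of the endocrine cells differed little. Of 26 beta cell genes none was called, while 13 passed the adjusted p higher and 2 lower, against 21.4% and 20.8% of all genes tested, and the median was 0.12. The widest was Mafa, a transcription factor of mature beta cells, named here after its values were seen: it was at 163.5, 235.8 and 279.2 CPM in C57Bl/6J and 1.2, 258.3 and 512.8 CPM elsewhere (0.94 ± 0.181). DBA/2J, with a mean of 4.22 CPM, set that range apart, the other 4 strains having means of 177.7 to 406.8 CPM, and without DBA/2J the Mafa difference turned to -0.27 (adjusted p = 0.0519). With the GC curve of each library removed Mafa gave 0.70, and 10 of the 26 passed higher and 2 lower. Without DBA/2J 8 of the 26 passed higher and 5 lower, and without the 13 intestinal libraries 1 was called higher. Ins1 had 61525, 67953 and 96022 CPM in C57Bl/6J and 42232, 82320 and 122075 CPM in the others (-0.18 ± 0.0818, edgeR adjusted p = 0.0645), and Ins2 gave -0.09 ± 0.0957 (adjusted p = 0.444). Ins1 did pass in some alternatives, among them edgeR fits without DBA/2J (-0.23, adjusted p = 0.00751) and without 1RC129 (-0.26, adjusted p = 0.0109). Ins2 passed with limma voom (-0.16, adjusted p = 0.037). Gcg, the glucagon gene, had 24427, 31074 and 35219 CPM in C57Bl/6J and 19199, 38550 and 61898 CPM elsewhere (-0.28 ± 0.0753, adjusted p = 0.00252). Without 129S2/SvPas it gave -0.15 (adjusted p = 0.0554). Its C57Bl/6J range lay inside that of the other strains, between AKR/J (mean 24331 CPM) and 129S2/SvPas (49432 CPM). In such bulk RNA fewer cells of a type and less RNA per cell cannot be told apart.

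Among the 20 islet hormone and neuropeptide genes tested, the largest log2 difference was in ghrelin. Ghrl was at 2.27, 6.44 and 16.1 CPM in C57Bl/6J and 0.112, 1.56 and 5.74 CPM in the others (2.14 ± 0.285, edgeR adjusted p = 2.96e-08), passing against 4 of the 5 strains, and the ranges overlapped. Iapp, Sst and Ppy did not pass in the 48 libraries, with log2 differences of -0.11, -0.08 and -0.08. Sst did pass without DBA/2J (-0.31, edgeR adjusted p = 0.000546). Iapp passed in some alternatives, among them without AKR/J (-0.18, edgeR adjusted p = 0.00284). Elovl2, a fatty acid elongase of beta cells, had 30.1 to 38.5 CPM in C57Bl/6J and 20.4 to 54.4 CPM elsewhere (0.05 ± 0.0561, adjusted p = 0.47). It passed in edgeR fits without BALB/cJ (0.20, adjusted p = 0.006) and without 129S2/SvPas (0.16, adjusted p = 0.00985).

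In glucose sensing, none of 19 genes was called. At the adjusted p 9 passed higher and 5 lower, against 21.4% and 20.8% of all genes tested. The catalytic subunit G6pc2, which opposes glucokinase, was at 1795 to 2374 CPM in C57Bl/6J and 1921 to 4196 CPM elsewhere (-0.49 ± 0.0674), while the potassium channel gene Kcnj11, at 196.2 to 214.8 CPM in C57Bl/6J and 101.6 to 231.98 CPM elsewhere, was higher (0.29 ± 0.0455). Among 22 genes of granules and exocytosis 6 were higher and 5 lower at the adjusted p, shares near those of all genes tested. Chga, the chromogranin A precursor, was at 14422, 16221 and 19521 CPM in C57Bl/6J and 7489, 10077 and 18543 CPM elsewhere (0.57 ± 0.0701). Scg5, the chaperone of a prohormone convertase, was at 745 to 989 CPM in C57Bl/6J (-0.97 ± 0.0446), near 129S2/SvPas (mean 863 CPM) and below the other 4 strains (1778 to 2111 CPM). Ero1lb, the beta cell oxidase of insulin folding, split the strains another way: C57Bl/6J had 1904 to 2228 CPM, while AKR/J and 129S2/SvPas had means of 613 and 931 CPM and the remaining 3 strains of 2073 to 2491 CPM.

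Genes of the respiratory chain were mostly slightly lower. Of 26, 16 passed the adjusted p lower and 1 higher, against 20.8% and 21.4% of all genes tested, with a median of -0.13. Without DBA/2J 9 passed lower and the median was -0.07. In the fit of all 338 libraries 3 passed lower and 1 higher. In this list 1 gene was called, lower. Ndufa4, a small subunit of the chain, was at 46.2, 50.4 and 67.4 CPM in C57Bl/6J and 51, 62.4 and 99.3 CPM in the other strains (-0.32 ± 0.0541, edgeR adjusted p = 3.23e-06), so that the ranges overlapped, and Ndufb8 gave -0.26.

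Of 35 nicotinamide nucleotide and antioxidant enzymes, 16 passed lower and 5 higher at the adjusted p, with a median of -0.15. Of all genes tested 20.8% and 21.4% did. The 4 called were Nnt, Glo1, Nqo1 and Gsta4, all lower in the 48 libraries. Without DBA/2J 2 of the list were called lower and 1 higher, and without the 13 intestinal libraries 3 lower. Nqo1, a quinone reductase, was at 6.25 to 8.03 CPM in C57Bl/6J and 8.08 to 40.2 CPM in the others, so that the separation was narrow (-1.14 ± 0.0739). Gsta4, a glutathione transferase for lipid aldehydes, gave -1.07. Gpx2, a glutathione peroxidase of epithelia, went the other way, at 10.6 to 15.9 CPM against 2.28 to 12.1 CPM (0.98 ± 0.0721). Fmo1, a flavin monooxygenase of drug metabolism, was at 9.52 to 13.9 CPM in C57Bl/6J, close to AKR/J (mean 12.7 CPM), against means of 164 CPM in BALB/cJ, 140.4 CPM in DBA/2J, 31 CPM in A/J and 20.2 CPM in 129S2/SvPas (-2.01 ± 0.125).

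Of 23 genes of cholesterol synthesis and uptake 12 passed the adjusted p higher and 3 lower, none of them called, with a median of 0.14. Of all genes tested 21.4% and 20.8% passed. Insig1, which holds back the maturation of sterol regulators, was at 112.1, 131.1 and 138.2 CPM in C57Bl/6J and 72.6, 90.1 and 139.2 CPM elsewhere (0.48 ± 0.051), and Sc5d and Srebf2 were higher by 0.40 and 0.32. Of 17 genes of fatty acid elongation and desaturation 8 passed lower and 3 higher. Lower were Fads2, which inserts a double bond into long-chain fatty acids, at 15.7 to 19.7 CPM in C57Bl/6J and 20.3 to 39.1 CPM elsewhere, without overlap (-0.61 ± 0.0571), Fads1 at -0.44 ± 0.0401 and Scd2 at -0.54 ± 0.0473, while Fads3, another desaturase gene, gave 0.11 (adjusted p = 0.509). Elovl4, an elongase of very long fatty acids, was at 6.13 to 8.63 CPM in C57Bl/6J, between DBA/2J (5.07 CPM by mean) and 129S2/SvPas (26.5 CPM). In fatty acid oxidation the coactivator Ppargc1a was called higher (4.38 to 7.29 CPM against 0.859 to 7.07 CPM, 1.01 ± 0.0945) and Acaa1b lower, whose near-identical copy Acaa1a was higher (0.62 ± 0.0755), so that reads may be split between them.

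MHC genes gave both directions. The H2-E alpha gene, H2-Ea-ps in the annotation used, had 3 reads in the 8 C57Bl/6J libraries together and a mean of 0.446 CPM in 129S2/SvPas, which is also of the b haplotype, against means of 30.5 to 41.3 CPM in the other 4 strains. The counts in 129S2/SvPas were those of libraries 6RC25 and 6RC26. The fitted difference of this gene depends on the prior count and is not given as a fold. The other class II chains were present: H2-Ab1 was at 65.5, 82.2 and 106.1 CPM in C57Bl/6J and 21.7, 44.6 and 269 CPM elsewhere (0.69 ± 0.181, edgeR adjusted p = 0.00173), H2-Eb1, the partner of the missing chain, at 69.3, 81.3 and 120.9 CPM against 32.4, 52.6 and 300.4 CPM (0.53 ± 0.181, adjusted p = 0.0158), and H2-Aa gave 0.40 ± 0.175 (adjusted p = 0.0586). H2-Aa did pass in some alternatives, among them limma voom (0.39, adjusted p = 0.00825). It also passed in edgeR fits without libraries 6RC25 and 6RC26 (0.49, adjusted p = 0.00106) and without the 13 intestinal libraries (0.59, adjusted p = 1.68e-05). H2-Eb1 did not pass without DBA/2J (0.43, adjusted p = 0.0768) or without the C57Bl/6J mouse 1RC129 (0.45, adjusted p = 0.056). The highest values were those of the 129S2/SvPas library 6RC26, which also had the most lymphocyte transcripts. Of 12 class II genes 2 passed higher and 1 lower, against 5 and 1 without libraries 6RC25 and 6RC26 and 7 and 1 without the 13 intestinal libraries. Of 13 lymphocyte markers 1 passed, Lck, lower (-0.81 ± 0.316, adjusted p = 0.0353, and 0.0504 to 0.079 without 1RC123, 1RC124, 1RC126, 1RC127 or 1RC128), with a list median of -0.59 that became 0.20 without the 13 libraries.

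Class II genes are switched on together through a shared promoter element, the Y box. The start regions of H2-Eb1, the partner of the missing chain, and of H2-Aa are shown here. H2-Aa is an alpha chain that did not pass in the fit of the 48 libraries but did in some alternatives. Both regions are from RefSeq (GRCm38.p6, a C57BL/6J sequence), with 250 bases before and 50 after the start of the gene. The capitals mark CTGATTGG, the Y box letters, searched on both strands. H2-Eb1 lies at chr17:34305617-34305916 on the plus strand and H2-Aa at chr17:34287774-34288073 on the minus strand.
H2-Eb1: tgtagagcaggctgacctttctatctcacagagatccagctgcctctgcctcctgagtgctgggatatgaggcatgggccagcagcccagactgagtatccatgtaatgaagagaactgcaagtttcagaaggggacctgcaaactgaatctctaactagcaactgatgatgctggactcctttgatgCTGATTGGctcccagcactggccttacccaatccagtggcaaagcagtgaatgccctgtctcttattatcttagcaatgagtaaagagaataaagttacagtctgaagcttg
H2-Aa: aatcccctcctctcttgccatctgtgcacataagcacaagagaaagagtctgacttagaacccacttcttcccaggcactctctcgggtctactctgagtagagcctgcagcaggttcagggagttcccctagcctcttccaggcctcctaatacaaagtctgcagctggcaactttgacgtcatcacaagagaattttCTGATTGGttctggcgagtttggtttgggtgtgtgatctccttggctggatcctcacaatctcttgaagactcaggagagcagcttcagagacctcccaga
Each holds the motif once on the sense strand, as 4.1% of the 32851 start regions of the table do on either strand. The match is a description of these letters, and neither the reads nor the strains other than C57Bl/6J were compared with it.

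Of 24 class I genes 2 were called higher and 6 lower. H2-Q2 was at 34.8, 38.7 and 42.6 CPM in C57Bl/6J and at a mean of 38.1 CPM in 129S2/SvPas, against means of 1.5 to 10 CPM in the other 4 strains (2.36 ± 0.0638). H2-K1, a classical class I chain, was at 305 to 382 CPM against 76.4 to 400.4 CPM (0.91 ± 0.0652). Lower were H2-Q1 (0 to 0.12 CPM against 0.111 to 6.43 CPM), H2-Q10, H2-T10, H2-M2, H2-Bl and H2-T3. H2-T3 was too low to be tested without the 13 intestinal libraries, where 1 class I gene was called higher and 5 lower of 23, and it did not pass with limma voom (adjusted p = 0.0999) or on the authors' table (adjusted p = 0.0892). H2-T22, H2-Bl, H2-T10, Gm8909 and 2410017I17Rik form the longest run of adjacent called genes, 5 in RefSeq order, with log2 differences of 1.02, -3.64, -1.82, -3.94 and -3.03. These genes are close relatives whose alleles differ in sequence, and reads may be split among them.

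Of 27 interferon response genes 1 was called in each direction, and 5 passed the adjusted p higher and 6 lower, shares near those of all genes tested. Rsad2 (viperin), an antiviral enzyme, was at 16.6, 18.8 and 30.2 CPM in C57Bl/6J and 2.57, 7.27 and 13.8 CPM in the others, without overlap (1.59 ± 0.114). Mx1, an antiviral GTPase that most inbred strains carry in a defective form, was at 0.38 to 0.879 CPM against 0.658 to 9.88 CPM (-1.96 ± 0.193). Gbp1 and Mndal, of the guanylate-binding and HIN families, were at -3.95 ± 0.452 and 2.04 ± 0.154. Of the 24 Gbp, Ifi200 and Iigp genes 2 were called higher and 4 lower. Of 16 macrophage markers 4 passed higher and none lower, against 21.4% and 20.8% of all genes tested. The complement genes C1qb (0.55 ± 0.149) and C1qc (0.50 ± 0.159) were among the 4. Without the C57Bl/6J mouse 1RC123 1 passed higher and 1 lower, C1qc giving 0.35 (adjusted p = 0.0787), and with the acinar covariate 2 passed higher and 1 lower.

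Of 26 genes of endoplasmic reticulum stress and protein folding 11 passed lower and 3 higher, none called, against 20.8% and 21.4% of all genes tested. The largest fall was in Derl3, a factor of protein removal from the reticulum (11 to 18.7 CPM in C57Bl/6J, 16.3 to 66.8 CPM elsewhere, -0.89 ± 0.12). Trib3, a stress-induced pseudokinase, was higher (0.86 ± 0.125). Of 17 clock genes 8 passed higher and 4 lower, against 21.4% and 20.8% of all genes tested. Higher was the repressor gene Nr1d1, at 54, 59.1 and 65.2 CPM in C57Bl/6J and 16.6, 39 and 60.1 CPM elsewhere (0.59 ± 0.115). The hour at which islets were taken is not given in the sources used here. The AP-1 genes Jund (0.39 ± 0.0658) and Junb (0.68 ± 0.132) passed with DBA/2J at means of 28.1 and 1.54 CPM, and both differences were negative without that strain, at -0.11 and -0.13. Of 12 endothelial genes 5 passed lower and 3 higher, against 20.8% and 21.4% of all genes tested. Log2 differences in this list ran from -0.37 to 0.85, the falls including Pecam1 (-0.30 ± 0.061) and the angiopoietin receptor Tek (-0.37 ± 0.0816). Without the C57Bl/6J mouse 1RC123 none passed higher and 6 passed lower.

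Of 26 acinar enzymes 7 passed the adjusted p higher, 1 lower and 18 did not pass, and 5 were called higher and 1 lower, with a median of 0.75. Cela2a, a pancreatic elastase, was at 436, 1404 and 2796 CPM in C57Bl/6J and 69.5, 301 and 3504 CPM elsewhere (1.44 ± 0.374), highest in 129S2/SvPas, and its level moves with the acinar content of the libraries given above. Ctrc, chymotrypsin C, stood apart: it was at 1.11, 3.96 and 6.24 CPM in C57Bl/6J and at a mean of 2.67 CPM in A/J, against means of 47.7 to 359.9 CPM in the other 4 strains (-3.89 ± 0.462, edgeR adjusted p = 2.6e-09). With the acinar mean as a covariate none of the 26 was called higher and 2 were called lower. That covariate is the mean of these same genes, so the loss of higher calls was largely fixed in advance. The regenerating protein gene Reg2 was at 2.14 to 26.3 CPM in C57Bl/6J (1.25 ± 0.425, adjusted p = 0.0155). It did not pass without A/J (0.36, adjusted p = 0.547), without DBA/2J (0.63, adjusted p = 0.293), without the C57Bl/6J mouse 1RC125 (1.00, adjusted p = 0.0679), with the acinar covariate (0.60, adjusted p = 0.0922) or with limma voom (1.37, adjusted p = 0.0815). Of 7 Reg genes 2 were called higher and 1 lower, against 5 higher and none lower of 6 tested without the 13 intestinal libraries. Tff2, a trefoil peptide, was at 8.15 to 52.3 CPM against 1.11 to 65 CPM (1.28 ± 0.355).

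Genes of nerves and of cell surface contacts were higher in C57Bl/6J more often than lower. Of 14 neuron and Schwann cell genes 10 passed the adjusted p higher and 2 lower, against 21.4% and 20.8% of all genes tested, with a median of 0.48. In this list 2 were called higher and 1 lower. Without DBA/2J 8 passed higher and 2 lower, with a median of 0.34, and none was called higher and 1 lower. The ubiquitin hydrolase Uchl1 was at 32.5, 46.6 and 66.5 CPM in C57Bl/6J and 6.78, 22.5 and 56.6 CPM elsewhere (1.17 ± 0.108), and the receptor kinase Ret at 224 to 282 CPM against 159.3 to 213 CPM without overlap (0.41 ± 0.0393). Lower was Th, the rate-limiting enzyme of catecholamine synthesis, at 40.9 to 60.7 CPM against 55.6 to 186 CPM (-1.13 ± 0.0978). Th is read in beta cells too, so the list does not mark nerves alone. The nicotinic receptor genes Chrna5, Chrna3 and Chrnb4, neighbours on their chromosome and chosen here after their values were seen, were higher by 1.03, 1.32 and 1.07. Of 25 adhesion and synaptic surface genes 13 passed higher and 2 lower, against the same shares of all genes tested. Among the 13 were Ncam1 (88.3 to 102.3 CPM against 48.5 to 94.8 CPM, 0.54 ± 0.0367) and Efna5 (0.82 ± 0.0578).

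Of 29 islet G protein-coupled receptor genes 11 passed higher and 3 lower, against 21.4% and 20.8% of all genes tested. Galr1, the galanin receptor that restrains insulin release, was at 41.3, 44 and 52.1 CPM in C57Bl/6J and 11.7, 21.9 and 38 CPM in the other strains, without overlap (1.03 ± 0.0565, edgeR adjusted p = 7.06e-21). Sstr1, a somatostatin receptor, was at 2.21 to 4.43 CPM against 0.135 to 4.07 CPM (1.55 ± 0.124). Chrm4, a muscarinic acetylcholine receptor, was higher by 0.48 ± 0.0784, while Adora1, an adenosine receptor, gave -0.30 ± 0.0527.

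Set against each strain singly, C57Bl/6J differed most often from DBA/2J, with 1767 genes called (11.6%), 1255 of them higher (8.27%). It differed in 881 genes from BALB/cJ (5.81%), 921 from A/J (6.07%), 952 from AKR/J (6.28%) and 995 from 129S2/SvPas (6.56%). With the GC curve of each library removed the count against DBA/2J was 1425 and those against the others 848 to 996. These 5 comparisons share the C57Bl/6J mice.

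The same contrast was then taken in mice not used above, on RC at days 2, 10 and 90 and on HFHS at day 30, with all libraries as labelled. There 450 genes (2.91%), 585 (3.78%), 451 (2.91%) and 756 (4.97%) were called. Of the called genes with no overlap at day 30 on RC, 80.3% were called in the same direction at day 2, 95.6% at day 10, 71.4% at day 90 and 94.1% on HFHS, and none in the opposite one. The median ratio of their log2 difference to that at day 30 on RC was 0.892, 0.98, 0.799 and 1.03. Col6a6 was 4.18, 4.77, 4.59 and 5.10 in these 4 sets, Nnt -1.35, -1.52, -1.05 and -1.51, and Tex15 -4.62, -4.92, -2.53 and -4.97.

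Days 2 and 90 held libraries that went against their strain label in these same genes: 3 labelled 129S2/SvPas at day 2 were nearer C57Bl/6J in most of them, and 2 labelled C57Bl/6J at day 90 were nearer the other strains. Without those libraries 603 genes (3.91%) were called at day 2 and 723 (4.62%) at day 90, and 92% and 96.4% of the genes with no overlap were called in the same direction, with median ratios of 0.982 and 1.01. The genes counted are the ones by which these libraries stand apart, so the higher shares are no independent support. No such library was found at RC day 10 or HFHS day 30.

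**Figure D5:**
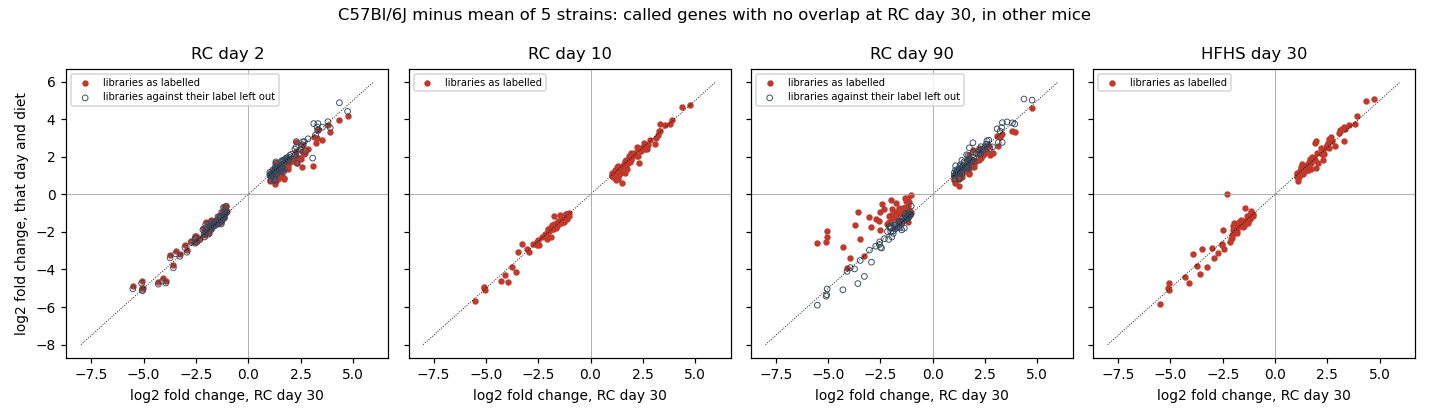
Log2 fold change of C57Bl/6J minus the mean of the other 5 strains at RC day 30 (horizontal axes) against the same in other mice (vertical axes: RC day 2, day 10, day 90 and HFHS day 30) for the called genes with no overlap at RC day 30. Red points are all libraries as labelled, with median ratios to the dotted line of equality of 0.892, 0.98, 0.799 and 1.03; open circles at days 2 and 90 leave out the libraries that went against their label. On HFHS 1 gene, Pnp2, lies at 0.02, against -2.31 on RC.

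Over all 706 called genes the carry-over was smaller, as 349 of 679 tested were called again in the same direction at day 2, 450 of 702 at day 10, 286 of 681 at day 90 and 454 of 663 on HFHS. In the opposite direction 50 of the 706 were called on HFHS and 33 at day 90, and none at day 2 or day 10. Without the libraries that went against their label 439 of 675 were called again at day 2 and 435 of 697 at day 90, and none in the opposite direction. Leaving out the libraries over 10 CPM of intestinal genes in both diets, none of the 706 was called in the opposite direction on HFHS and 471 of 640 were called in the same one (4.47% of genes tested there were called). A test of the difference of the strain effect between HFHS and RC at day 30 passed the adjusted p in 720 genes (4.63%), in 19.4% of the 706 and in 9 of the called genes with no overlap. With the GC curves removed it passed in 2.45% of genes and in 16.6% of the called ones. Without the libraries over 10 CPM of intestinal genes in both diets 4.36% of genes passed it, and 3.53% of the called ones did, 23 of 651. The called genes were chosen by RC day 30 values that this test also uses. Their shares are therefore not independent of that choice. In C57Bl/6J on HFHS at day 30 the intestinal sum lay over 10 CPM in 3 of 8 libraries and reached 2238 CPM. In 129S2/SvPas on HFHS it lay over 10 CPM in 3 of 7 libraries and reached 4990 CPM. Without the libraries over 10 CPM Reg2 kept a difference between diets, at 4.58 (edgeR adjusted p = 0.00129) against 6.23 with all libraries.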

How the data were processed

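RNA of islets of 1 mouse per library was read with a TruSeq RNA v2 kit, which keeps no strand, so overlapping and antisense transcripts cannot be told apart. The build was mm9 and the tools were edgeR, HTSeq 0.5.3p3, TopHat 1.3.3 and SAMtools 0.1.16, per the submitters' processing notes. The mouse reference genome comes from the strain whose islets are compared here with those of the others. Whether sequence differences of the other strains from that reference lowered or shifted their counts was not tested, and this limit applies to all strain differences given. The authors deposited raw counts of reads for 21382 genes named by symbol, and a table of normalized log2 values for 14826 genes, used here only as an alternative. No gene coordinates of mm9 were used here.

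Counts of the 48 libraries were scaled by TMM, filtered with filterByExpr (15168 genes) and fitted with edgeR 4.0.16 (R 4.3.3), robust quasi-likelihood, 1 mean per strain and a prior count of 2. All p-values are Benjamini-Hochberg adjusted over all genes tested. A gene is called at an adjusted p under 0.05 and a log2 difference of at least 1 in size, and "passed" refers to the adjusted p alone. Gene CPM values are TMM-scaled, while intestinal and cell type sums and the Apoa4 range are on the library total. The fit was tested on simulated counts. Near-identical copies were sought with BLAST+ 2.17.0. GC content came from GENCODE transcripts for 98.3% of genes.

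Genes named are Nnt, Elovl2, 6 hormone genes, the 15 largest rises and 15 largest falls among called genes without overlap at 2 CPM or more (predicted genes and bare identifiers skipped), up to 4 members of each of 36 lists by smallest p, and any called member of the allelic, diabetes locus, MHC, Gbp and Ifi200 lists. Some genes that this rule names are not reported here. The members and lists were chosen with earlier results of these data known. The 10 intestinal genes were chosen after seeing the data. In the called genes without overlap 9 libraries of other days went against their strain label. The C57Bl/6J-labelled 1RC133, 1RC134, 1HF155 and 1HF156 were nearer C57Bl/6J in 21.2 to 28.5% of these genes, against 91.2% or more in the other 43 C57Bl/6J libraries. The 129S2/SvPas-labelled 6RC2, 6RC5, 6RC6, 6HF5 and 6HF6 were nearer it in 75.9 to 82.5%, against 32.1% or less in 238 libraries of other strains. The 5 on RC were left out as an alternative, and the 4 on HFHS enter only the fit of all libraries. Alternatives changed the scaling, filter, test, input table, GC correction, acinar covariate, strains and mice, or fitted all 338 libraries in 48 groups. Counting intervals are not given because mice differed by more than counting error.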

Additional observations from a re-analysis of the deposited data

Results flagged for a closer look

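Single C57Bl/6J mice stood apart from the other 7 by Dixon's gap criterion in 19 named genes, a criterion that chance meets in about 1 in 20 groups. Mouse 1RC123 was highest in the macrophage genes C1qb (40.3 CPM, the others at 17.3 to 28), C1qc (33.9 CPM, others 13 to 20.9) and Emr1 (20.3 CPM, others 6.62 to 11.3). It was also highest in the collagen genes Col3a1 (257 CPM, others 110.8 to 155.6) and Col1a2 (141.8 CPM, others 56.3 to 86.6) and in Smad3 (9.79 CPM, others 6.81 to 8.19).

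Mouse 1RC129 was highest in Ins2 (176178 CPM, others 103934 to 137621), Acadl (53.4 CPM, others 43.5 to 46.8), Ghrl (16.1 CPM, others 2.27 to 7.79) and Cd3g (0.965 CPM, others 0.0345 to 0.2), and lowest in Syt4 (178 CPM, others 214 to 245). Mouse 1RC130 was highest in Gbp10 (0.16 CPM), Reg4 (0.04 CPM) and Akp3 (0.0799 CPM), all 3 resting on a few reads. Mouse 1RC126 was lowest in H2-T22 (0.19 CPM, others 0.439 to 0.599) and highest in H2-Ea-ps (0.0762 CPM). The remaining ones are Gpx2 in 1RC125 (15.9 CPM, others 10.6 to 12.7), H2-Q1 in 1RC128 (0.12 CPM) and Chrm4 in 1RC127 (12.1 CPM, others 7.61 to 9.33).

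Among library measures of the other strains, 5 stood apart: 43832354 assigned reads in AKR/J library 5RC29, an insulin share of 29.7% in A/J library 4RC26, acinar shares of 0.886% in DBA/2J library 2RC116 and 3.91% in 129S2/SvPas library 6RC27, and a GC slope of -0.453 in 129S2/SvPas library 6RC25.

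The strain effect differed between diets (HFHS minus RC at day 30, edgeR adjusted p under 0.05) for 22 named genes. It remained past the threshold without the intestinal libraries of both diets for Reg2 (6.23, and 4.58 without them), Reg3b (5.83 and 3.14), Reg3d (4.14 and 2.68), Junb (-1.0 and -1.24), Vgf (-0.85 and -1.01), Nr1d1 (-0.60 and -0.81), Jund (-0.56 and -0.65), Nrxn2 (-0.53 and -0.63), Trnp1 (-0.48 and -0.58), Scd2 (-0.45 and -0.35) and Hmgn2 (-0.40 and -0.57). It did not for H2-Q1 (3.53 and 0.36), Tff2 (2.47 and 0.89), Ctrl (2.20 and 0.75), Amy1 (2.08 and 0.88), Iqgap2 (0.57 and 0.21), Cyp39a1 (0.45 and 0.22), Wdfy1 (0.24 and 0.22) and Insig1 (-0.33 and -0.25). Akp3 (10.90), Reg4 (5.01) and H2-T3 (4.75) were not tested without those libraries. The named genes were chosen in part by RC day 30 values that this contrast also uses.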

How the results depend on the processing

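The number of called genes stayed between 639 and 813 in all alternatives that kept the fold threshold: 706 with DESeq2 size factors, 783 without a filter, 813 with the DESeq2 Wald test, 783 with limma voom and sample weights, 639 with limma on the authors' normalized table (another test and other genes), 722 with all libraries of the series in 48 groups, 693 with a GC offset, 745 without libraries of steep GC slope, 699 with the acinar covariate and 650 to 753 leaving out 1 of the 5 strains. The share of calls that were higher was 49.9%, and it was 58.9% with voom, 58.7% on the authors' table and 59.4% without the 13 intestinal libraries. With no fold threshold 6402 genes passed, 3246 higher and 3156 lower. Leaving out each C57Bl/6J mouse in turn gave 669 to 743 calls (335 to 381 higher, 332 to 364 lower) and 224 to 247 genes without overlap. On the library total 195 genes had no overlap, against 221. At RC day 90 723 genes were called without the libraries against their label and 711 without those with intestinal transcripts, against 451 with all, and at RC day 2 603 without libraries against their label, against 450. The difference between diets passed in 377 genes with the GC offset, against 720. Of 173 named genes 49 had another result at the adjusted p alone in at least 1 alternative, and the others kept theirs in all of them. Crossings of the fold threshold were not counted here. Without DBA/2J the sign turned for Irx1 (-0.046), Jund (-0.11), Junb (-0.13) and Mafa (-0.27). The cause was not tested. No paired analysis was possible because C57Bl/6J mice share no mouse number with the other strains. Leaving out 6RC25 and 6RC26, and leaving out the intestinal libraries, were chosen after seeing the data. Depth limits genes near 0 in C57Bl/6J, such as Ifi202b and H2-Ea-ps, whose fitted differences depend on the prior count.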

Other observations

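Of 694 called genes that could be placed in RefSeq order, calls next to one another formed 65 runs of at least 2 genes and 11 runs of at least 3. The flavin monooxygenase genes Fmo4, Fmo1 and Fmo2 were all lower in C57Bl/6J, by log2 differences of -1.37, -2.01 and -1.0. The Trim genes Trim34a, Trim12a and Trim34b, related in sequence, gave 2.68, 4.36 and -2.17. The serpin genes Serpina1b, Serpina1d and Serpina3f gave -2.37, 1.27 and -1.85. The runs of Apoa1, Apoc3 and Apoa4 (-4.68, -3.30 and -6.01) and of AI747448, Clca1 and Clca3 (-2.84, -1.42 and -5.37) hold intestinal genes.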
